A study of Mus musculus with 6 samples.

Results

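The SR protein kinase and Tra2 genes described here are 9 genes, Clk1, Clk2, Clk3, Clk4, Srpk1, Srpk2, Dyrk1a, Tra2a and Tra2b, of 9844 genes with an intron measured in all total RNA libraries. They were taken by gene symbol, with every intron listed under that gene alone and every long-read transcript assigned to it. The cells were E14 mouse embryonic stem cells (129/Ola background) grown with serum and LIF, transfected with either control siRNA or Son siRNA and collected 24 h after transfection. Total RNA, depleted of rRNA, was sequenced in 2 control and 2 Son siRNA libraries, and polyadenylated RNA was sequenced as Nanopore cDNA in 1 library of each kind. Nothing in the labels says that replicates came from separate cultures, so the spread between them may be technical. Both Nanopore labels name the first total RNA Son siRNA sample as their starting material, which goes against the treatment given for the control, so the 2 Nanopore libraries are called the libraries labelled control and knockdown.

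SON is a nuclear speckle protein with an arginine-serine-rich region that helps the spliceosome remove introns with weak splice sites. CLK1 to CLK4, which act in the nucleus, and SRPK1 and SRPK2, which act mainly in the cytoplasm, phosphorylate serine residues of SR proteins, the splicing factors that speckles store and release, and DYRK1A is a related kinase that also phosphorylates splicing factors. TRA2A and TRA2B are SR-like activators that bind GAA-rich exon sequences, and their genes carry exons with a stop codon that are known to limit their own production. Clk genes are known for a similar control, by skipping of an early exon and by keeping introns in nuclear transcripts.

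For each intron, the total RNA tables count split reads (spliced) and unsplit reads (crossing the junction into the intron) at both ends, and splicing efficiency is the split share of all these reads. The 4 libraries held 10556187 to 16012286 split reads at 5′ junctions. Levels are given as CPM. For an intron this is split or unsplit reads at both junctions per 1000000 split reads at 5′ junctions of the library, for a gene its 5′ split reads per 1000000 summed over all genes, and for long reads those per 1000000 assigned to transcripts. Son itself had 281 and 312 CPM of spliced reads in the controls, against 94.6 and 102 after knockdown, and 217 long reads in the library labelled control against 37 in the library labelled knockdown, a ratio of CPM of 0.280 with a 95% exact counting interval of 0.192 to 0.398. Of the pluripotent cell markers looked up, 9 of 10 were listed (all but Sox2), with a summed level of 3643 to 3969 CPM over the 4 libraries. The listed markers of fibroblasts or feeder cells (1 of 8, 1.16 to 2.19 CPM), endoderm (1 of 6, 1.83 to 2.89) and mesoderm (1 of 4, 2.18 to 4.73) were near 0. None of 5 markers of 2-cell-like cells was listed. Only introns with at least 10 reads at each junction are listed, so a marker that is not listed is not thereby shown to be absent. The 3 of 4 neural markers listed summed to 71.5 to 87.1, nearly all of it Tubb3 (67.0 to 82.6), with Pax6 at 1.25 to 1.65 and Nes at 2.25 to 3.17.

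The 9 genes had 54 introns listed in any library and 52 in all 4. The coding models with most long reads have 103 introns between them. Of these, 55 were not listed, and 54 of the 55 are overlapped by an exon of some annotated transcript, so the tables mostly hold introns that no annotated exon enters. Introns 10 and 11 of Clk3 are the exceptions, entered by exons of Edc3 on the opposite strand, and as no strand setting is stated in the labels, their values are uncertain. Introns are numbered 5′ to 3′ along the GENCODE M21 model named, and positions are those of the deposited tables, for which the processing notes name GRCm39.

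Because the 9 genes were proposed with results of the total RNA contrast known, their changes are given as a description, with standard errors and with the call of a test fitted on the whole table, and without p-values. A call means a Benjamini-Hochberg adjusted p under 0.05 over all introns or genes in edgeR's quasi-likelihood test. Over all 63309 introns tested, 1.71% were called lower in splicing efficiency in the knockdown and 0.0442% higher. Among the 52 introns of the 9 genes, 3 were called lower, all of them in Clk2, and 0 higher. The background is printed for orientation only.

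Clk2 encodes a dual-specificity kinase whose catalytic domain fills the C-terminal part of the protein. The 3 introns called lower after Son siRNA, and intron 10, lie between the exons printed here, all of them fully coding in the model Clk2-202. The first line runs from the last 30 bases of exon 8 through exons 9 and 10 to the first 30 bases of exon 11, a stretch that spans introns 8, 9 and 10. The second line joins the last 30 bases of exon 5 to the first 30 of exon 6, around intron 5. The sequences come from GENCODE M21 transcripts (GRCm38, plus strand, exons within chr3:89174197-89175471 and chr3:89170049-89170409), and capitals mark the 3 bases on each side of every exon junction, where an intron is removed.
Clk2 exons 8 to 11: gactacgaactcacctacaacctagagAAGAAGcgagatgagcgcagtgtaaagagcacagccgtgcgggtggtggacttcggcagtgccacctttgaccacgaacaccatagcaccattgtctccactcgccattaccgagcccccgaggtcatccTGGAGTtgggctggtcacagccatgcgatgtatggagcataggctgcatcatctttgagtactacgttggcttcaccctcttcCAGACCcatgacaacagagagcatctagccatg
Clk2 exon 5 to 6: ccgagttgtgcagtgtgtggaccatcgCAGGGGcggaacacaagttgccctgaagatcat

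Intron 9 of Clk2 (83 nt, chr3:89082382-89082464, plus strand) had a splicing efficiency of 0.663 and 0.622 in the control libraries, against 0.228 and 0.217 after Son siRNA, a mean of 0.643 ± 0.029 (SD, n = 2) against 0.223 ± 0.008 (SD, n = 2). All control values lay well above all knockdown values. The log2 odds ratio of unsplit to split reads was 2.65 with a standard error of 0.51, the highest of the 52 introns, and the intron was called lower in efficiency. Its 4 libraries held 181, 143, 184 and 161 reads at the 2 junctions, so the total coverage of the site was alike while its make-up was not. Split reads in CPM were 7.49 and 8.36 in control libraries against 2.80 and 3.32 after knockdown, and unsplit reads 3.81 and 5.08 against 9.48 and 11.9.

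Intron 8 (653 nt, chr3:89081599-89082251) lies directly upstream. Its efficiency was 0.844 and 0.804 in the controls, against 0.663 and 0.588 after knockdown, without overlap, with a log2 odds ratio of 1.49 (SE 0.43), and it was called lower. Intron 5 (177 nt, chr3:89077423-89077599) was almost fully spliced in the controls, at 0.989 and 0.988, and stood at 0.967 and 0.917 in the knockdown, with a log2 odds ratio of 2.29 (SE 0.55), and it was called lower as well. That call rests on few unsplit reads, 10 and 8 in the controls against 15 and 22 in the knockdown. Intron 9 was also called in 10 of 12 alternative analyses, intron 8 in 5 of 12 and intron 5 in 5 of 11, all in the same direction. Without the first control library none of the 3 was called, at log2 odds ratios of 2.52, 1.28 and 2.18 for introns 9, 8 and 5. Introns 8 and 5 also lost the call without the second control library (1.69 and 2.39) and without the second knockdown library (1.27 and 1.59).

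Intron 10 (151 nt, chr3:89082548-89082698) had the lowest efficiency in the control libraries among the 5 listed introns of Clk2-202, which has 12. Its efficiency was 0.464 and 0.457 there and 0.183 and 0.175 in the knockdown, with a log2 odds ratio of 1.96 (SE 0.64). The groups did not overlap and the replicates lay close together, yet this intron was not called, with 70 to 104 reads per library. With at least 30 split and 30 unsplit reads required of each intron, which leaves fewer introns in the test, it was called.

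The other listed Clk2 introns sat near the 5′ end. Introns 1 and 2 of the alternative model Clk2-210 had efficiencies of 0.468, 0.481, 0.356 and 0.357 and of 0.619, 0.433, 0.400 and 0.263 in the 2 control and then the 2 knockdown libraries, and neither was called with 27 to 47 reads a library. Split reads of intron 1 numbered 22, 13, 16 and 10 at the 5′ junction and 0 at the 3′ junction in each library. Those of intron 2 numbered 2, 0, 0 and 0 at the 5′ junction and 24, 13, 16 and 10 at the 3′ junction. Nearly all of these reads thus joined sites other than the 2 ends of the named intron, so the values do not measure its removal. Intron 2 of Clk2-202 (1490 nt) went the other way, from 0.920 and 0.883 to 0.933 and 0.928, and was not called. Thus 6 of the 7 Clk2 introns had both knockdown values below both control values and 1 had them above. The 6 include the 2 introns of Clk2-210, whose values do not measure removal of the named intron. Over all tested introns, 24.3% had both knockdown values below both controls and 13.1% had them above.

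**Figure D1:**
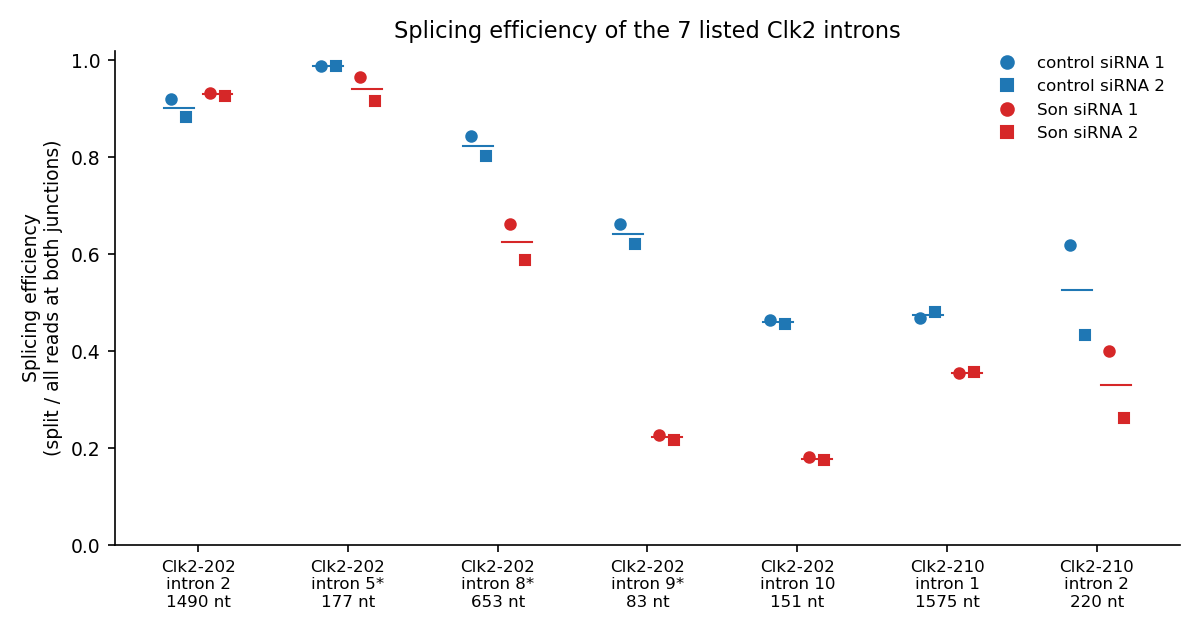
Splicing efficiency (split share of the junction reads, vertical axis from 0) of the 7 listed Clk2 introns in each total RNA library, with bars at the group means and asterisks at introns called in the whole-table test. Introns 9 and 10 of Clk2-202 sit at 0.175 to 0.228 in the Son siRNA libraries and at 0.457 to 0.663 in the controls.

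The split and unsplit reads moved in different proportions along the gene. At intron 5, split reads in the knockdown were 0.438 times the control mean and unsplit reads 2.24 times, so that all reads at the intron came to 0.459 times. At intron 8 the same ratios were 0.484, 1.37 and 0.640. At introns 9 and 10, where unsplit reads make up more of the signal, all reads came to 1.11 and 1.28 times the control mean, with split reads at 0.386 and 0.495 and unsplit reads at 2.41 and 1.94. Split reads were therefore lower at all 4 introns, while the sum of all reads was lower only at introns 5 and 8 of these 4.

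**Figure D2:**
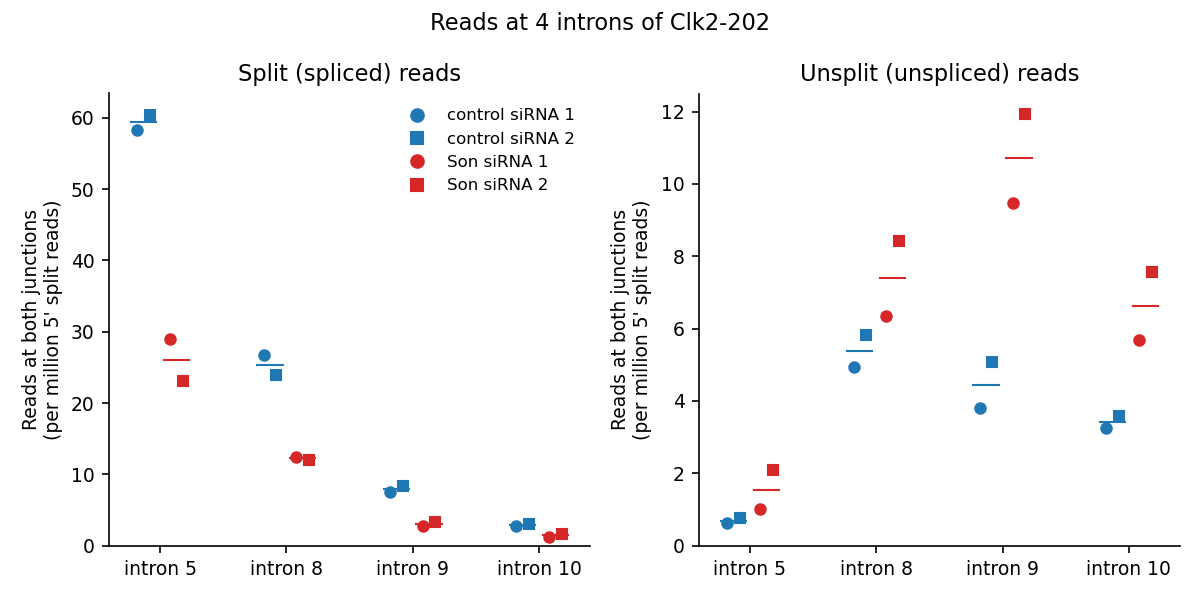
Split reads (left) and unsplit reads (right) at both junctions of 4 introns of Clk2-202, in CPM of the 5′ split reads of the library, with bars at group means of 2 libraries each. Split reads of the Son siRNA libraries lie below those of the controls at each intron, and unsplit reads lie above.

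The CLK paralogues allow the same junction to be viewed in related genes. Each of the 4 main Clk models has 13 exons, and exons 5 to 12 have the same length in all 4. Over these 830 coding bases Clk2 is 73.5% identical to Clk3, 67.7% to Clk4 and 65.4% to Clk1, and Clk1 and Clk4 are the closest pair at 76.5%. The exon 9 to 10 junctions are printed side by side because intron 9 carries the largest Clk2 difference, again with 3 bases on each side of the junction in capitals (GENCODE M21, GRCm38). The 2 exon parts lie within chr1:58413390-58414501 (minus strand) for Clk1, chr3:89174945-89175240 (plus strand) for Clk2, chr9:57752645-57753400 (minus strand) for Clk3 and chr11:51276118-51277935 (plus strand) for Clk4, all in GRCm38.
Clk1 exon 9 to 10: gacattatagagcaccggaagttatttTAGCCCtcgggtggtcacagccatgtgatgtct
Clk2 exon 9 to 10: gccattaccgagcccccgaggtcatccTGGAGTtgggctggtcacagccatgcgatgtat
Clk3 exon 9 to 10: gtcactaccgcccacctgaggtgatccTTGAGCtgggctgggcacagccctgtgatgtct
Clk4 exon 9 to 10: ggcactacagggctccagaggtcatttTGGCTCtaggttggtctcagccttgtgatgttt

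Over the 60 bases shown, Clk2 is 78.3% identical to Clk3 and 71.7% to both Clk1 and Clk4, so the exonic sequence at this junction is shared to a large extent. The introns are not alike in length. Intron 9 measures 83 nt in Clk2, 543 nt in Clk3, 899 nt in Clk1 and 1605 nt in Clk4. Of the other 3 only Clk3 intron 9 was listed, and its efficiency was 0.889 and 0.873 in the controls, against 0.888 and 0.831 after knockdown, with overlapping groups and no call.

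Clk3, a kinase of the same family, had overlapping groups at 4 of its 7 introns. Without overlap, 24.3% of all tested introns were lower and 13.1% higher. Introns 6 (583 nt) and 7 (906 nt) were lower without overlap, from 0.979 and 0.979 to 0.965 and 0.949 and from 0.939 and 0.920 to 0.913 and 0.905, and neither was called. Intron 10, the counterpart of the poorly spliced Clk2 intron 10, had 0.684 and 0.674 in the controls, against 0.834 and 0.701 after knockdown, and intron 11 had 0.646, 0.679, 0.855 and 0.487, a spread as wide within the knockdown as between groups. Both are the introns entered by Edc3 exons.

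Clk4 and Clk1, the paralogue pair closest in sequence, each keep a short intron with incomplete splicing. Intron 6 of Clk4 (84 nt, chr11:51166155-51166238) had efficiencies of 0.747 and 0.719 in the controls, against 0.836 and 0.789 after knockdown, with a log2 odds ratio of -0.65 (SE 0.42). Thus a Clk4 intron of nearly the same length as Clk2 intron 9 was higher in both knockdown libraries, and it was not called. Intron 11 of Clk4 had 0.545 and 0.364 against 0.824 and 0.533, with 44 to 55 reads a library and overlapping groups. Intron 8 of Clk1 (88 nt, chr1:58453661-58453748) stood at 0.892 and 0.895 in the controls, against 0.893 and 0.924 after knockdown, overlapping and not called.

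SRPK1 and SRPK2 are the cytoplasmic kinases that prepare SR proteins for nuclear import. The Srpk1 introns listed in all libraries were nearly complete apart from intron 7. Intron 4, the one with most reads, had 0.996 and 0.993 in the controls, against 0.992 and 0.972 after knockdown, with only 2 to 6 unsplit reads a library and no call. Intron 7 of Srpk1 was higher without overlap, from 0.890 and 0.872 to 0.928 and 0.917, and was not called. Srpk2 was also higher after knockdown at some introns. Its intron 7 (1081 nt, chr5:23731814-23732894) had 0.672 and 0.711 in the controls, against 0.870 and 0.905 after knockdown, a log2 odds ratio of -1.77 (SE 0.83) on 42 to 69 reads a library, not called. Introns 10 and 13 of Srpk2 were also higher without overlap, and intron 14 overlapped, at 0.767 ± 0.050 against 0.815 ± 0.021 (SD, n = 2 each). Srpk2 overlaps Kmt2e on the opposite strand in the annotation, although no exon of another gene enters the introns given here.

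Dyrk1a had 9 tested introns, all over 1000 nt. Of these, 1 was lower and 2 were higher without overlap, beside 24.3% and 13.1% of all tested introns. Its only intron with a control efficiency under 0.8, intron 4 (2054 nt), had 0.817 and 0.729 in the controls, against 0.807 and 0.578 after knockdown, so the low value came from 1 library. None of the 9 was called.

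Taken over the 45 tested introns outside Clk2, edgeR called 0, with 1 lower and 1 higher at an unadjusted p under 0.05. DESeq2 also called 0, with 0 at that unadjusted level, and limma on the log odds called 0, with 1 higher at that level. Both knockdown values lay below both controls at 6 of the 45 and above at 8, beside 24.3% and 13.1% of all tested introns. The median log2 odds ratio of these 45 introns was 0.05 and that of the 7 Clk2 introns 1.49, beside 0.12 over all 63309. The absence of a call does not show that an intron was spliced alike in both groups, since many of these introns had few unsplit reads.

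**Figure D3:**
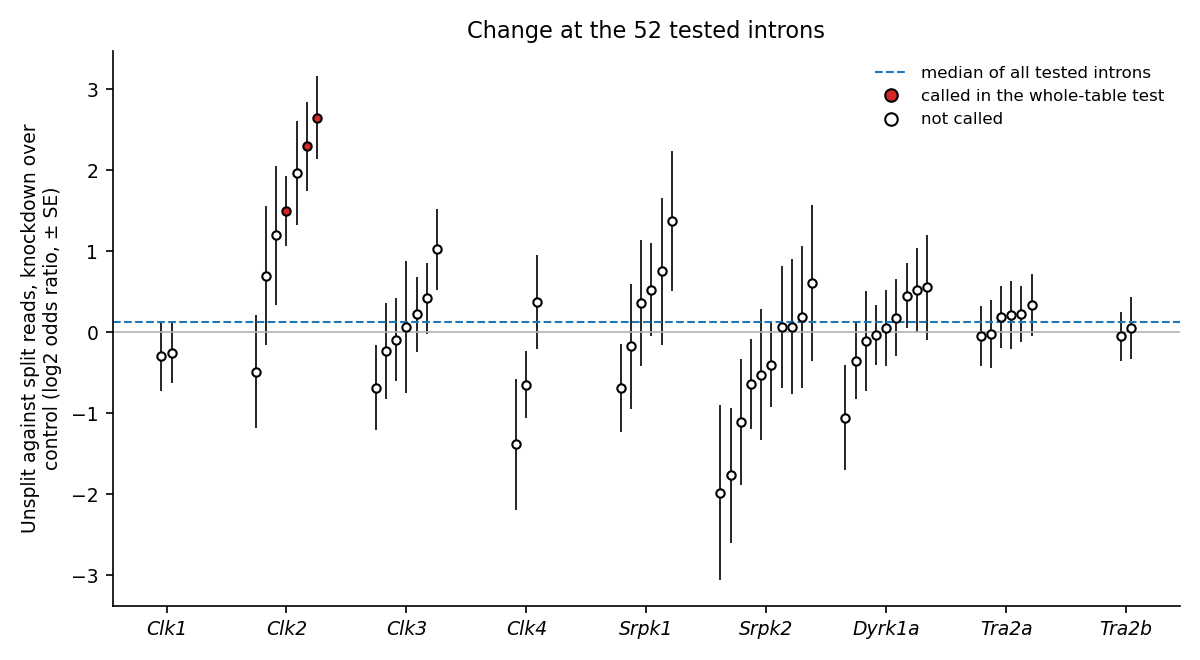
Log2 odds ratio of unsplit to split reads, knockdown over control, with its standard error, for the 52 tested introns grouped by gene and ordered by value within each gene, where positive values mean lower splicing efficiency. The 3 filled points are the called Clk2 introns, and the dashed line is the median of all tested introns at 0.12.

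Intron length differed between these genes. Over the whole table, 8.28% of introns of up to 100 nt were called lower, 5.51% of those over 100 and up to 300 nt, 1.01% of those over 300 and up to 1000 nt and 0.221% of longer ones. Of the introns of the 9 genes, 1 of 5, 1 of 6, 1 of 15 and 0 of 26 were called in these classes. The longest class holds 26 of the 52.

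Spliced reads per gene, summed over 5′ junctions and given in CPM over all genes, were lower in the knockdown for 2 of the 9 genes by the whole-table test and higher for 0. The background of that test was 6.76% lower and 1.96% higher over 9474 genes. Levels are not corrected for length, so they are compared between libraries and not between genes. In bulk RNA, a change in transcript per cell and a change in the cells that carry it cannot be told apart.

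Clk2 had 56.4 and 55.3 CPM in the controls, against 28.0 and 25.7 after knockdown. The groups lay far apart, with a mean of 55.8 ± 0.787 (SD, n = 2) against 26.8 ± 1.63 (SD, n = 2) and a log2 fold change of -1.08 (SE 0.12), and the gene was called lower. Its efficiency over all introns was 0.871 and 0.847 in the controls, against 0.674 and 0.585 after knockdown, also called lower. It was the only one of the 9 genes called in gene splicing efficiency, where 6.98% of 9370 genes were called lower and 0.128% higher.

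The 5 genes whose spliced reads followed Clk2 most closely over the 4 total RNA libraries, by Euclidean distance of mean-centred log2 values among 7387 genes compared, were Rogdi (distance 0.036), Faap100 (0.055), Vars (0.079), Cntfr (0.080) and Snx5 (0.085). Their log2 fold changes ran from -1.16 for Faap100 to -0.98 for Snx5. Fold changes near that of Clk2 follow from the way these genes were picked. All 5 were called lower in gene splicing efficiency, beside 6.98% of all genes. That measure uses the same split reads, so it is not independent of the choice. Introns were called lower in Vars (10) and Rogdi (3) but not in the other 3 genes, beside 1.71% of all introns.

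Tra2a was the other gene called lower in spliced reads. It had 180 and 180 CPM in the controls, against 142 and 142 after knockdown, so the replicates nearly coincided within each group, with a log2 fold change of -0.37 (SE 0.08). Its gene splicing efficiency was 0.887 and 0.873 against 0.875 and 0.850, with overlapping groups and no call. The lower count of Tra2a junctions was thus not accompanied by a called difference in the spliced share. Most unsplit reads in that share came from intron 2 of Tra2a-202, at 456 and 325 in the controls and 368 and 324 after knockdown. Nearly all split reads of this intron came from its 3′ junction, as given below, so the share is a limited measure of splicing in Tra2a. Without either control library, or with the best covered intron alone, the call on Tra2a was not made, at log2 fold changes of -0.37 to -0.42.

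Tra2b, the paralogue, had 87.0 and 86.3 CPM in the controls, against 85.8 and 75.7 after knockdown, a log2 fold change of -0.12 (SE 0.10), not called. The remaining kinases were not called either. Dyrk1a had 116 and 117 against 108 and 114 (log2 fold change -0.09, SE 0.09). Clk1 had 39.2 and 39.3 against 41.2 and 40.2 (0.03, SE 0.12). Clk3 had 97.6 and 86.9 against 94.1 and 87.4 (-0.05, SE 0.10). The groups of Clk3 overlapped, and those of Clk1, Dyrk1a and Tra2b did not, at changes no larger than 0.12 in size on the log2 scale.

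Clk4, Srpk1 and Srpk2 varied more between replicates. Clk4 had 22.9 and 24.6 against 22.7 and 33.9 (log2 fold change 0.22, SE 0.17), so its higher mean came from the second knockdown library. Srpk1 had 62.4 and 74.1 against 69.5 and 54.3 (-0.15, SE 0.12), and Srpk2 had 70.6 and 56.1 against 77.8 and 67.7 (0.17, SE 0.12). With all 4 libraries these genes were not called. Without the first knockdown library, the log2 fold change was 0.50 for Clk4 and -0.33 for Srpk1. Without the second knockdown library, it was -0.09 for Clk4 and 0.01 for Srpk1.

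**Figure D4:**
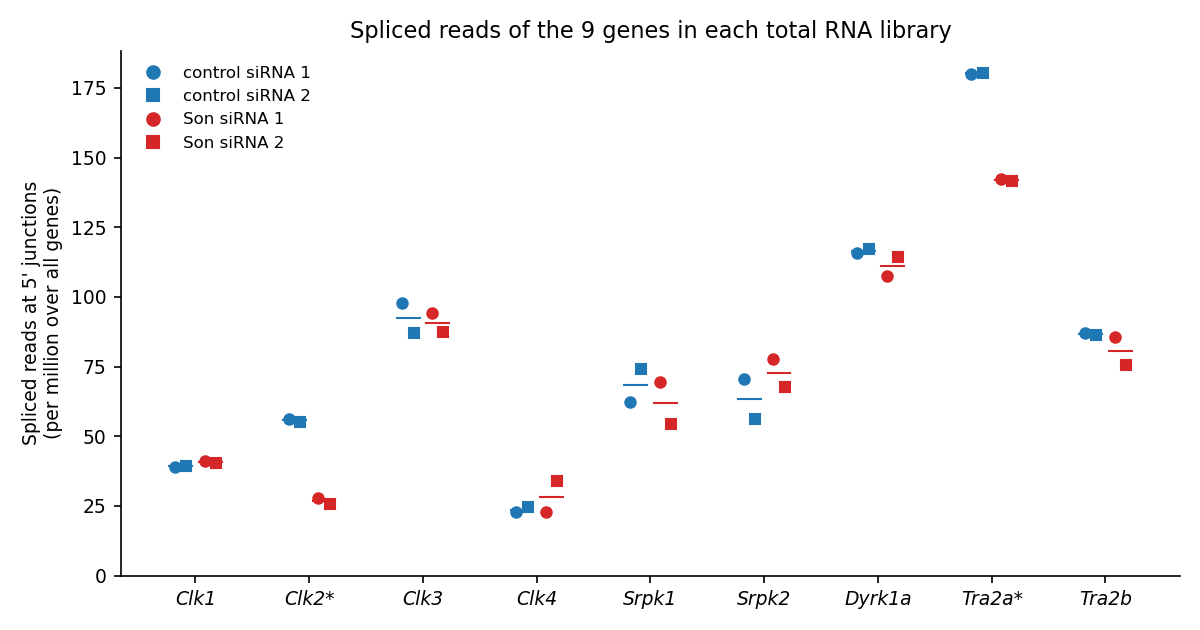
Spliced reads at 5′ junctions in CPM over all genes (vertical axis from 0) for the 9 genes in the 2 control and 2 Son siRNA libraries, with bars at the group means and asterisks at genes called in the whole-table test. Clk2 stands at 55.3 to 56.4 in the controls and 25.7 to 28.0 in the knockdown, and Tra2a at 180 and 142.

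Tra2a and Tra2b each carry an exon that introduces a stop codon. The coding part of that exon is printed for the decay models Tra2a-202 and Tra2b-206, with the stop codon in capitals (GENCODE M21, GRCm38, minus strand, chr6:49252965-49253108 and chr16:22259181-22259261).
Tra2a exon 2 of the decay model: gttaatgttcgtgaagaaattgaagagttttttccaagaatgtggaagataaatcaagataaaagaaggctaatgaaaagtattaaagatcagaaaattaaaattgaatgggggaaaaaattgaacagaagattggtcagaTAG
Tra2b exon 2 of the decay model: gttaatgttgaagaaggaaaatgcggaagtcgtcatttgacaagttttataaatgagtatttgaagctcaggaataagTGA

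Both exons are rich in GAA, the core of the sequence that Tra2 proteins bind. The whole exons measure 306 nt in Tra2a and 276 nt in Tra2b and hold 32 and 28 copies of GAA on the transcript strand, with 2 and 0 copies of its reverse complement TTC. Among 33806 annotated exons of 250 to 350 nt, 98.1% hold at least 1 GAA, the median is 5, and 0.0325% hold 32 or more and 0.0621% hold 28 or more. A match of letters is a description and not a measured binding site.

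The intron after that exon was listed for Tra2a (intron 2 of Tra2a-202, 287 nt, chr6:49229450-49229736). Its efficiency was 0.516 and 0.492 in the controls, against 0.487 and 0.444 after knockdown, without overlap and without a call, at a log2 odds ratio of 0.22 (SE 0.35). The 2 junctions differed sharply. Split reads at its 5′ junction, which need the stop-codon exon to be spliced onward, numbered 1, 1, 0 and 0, while the 3′ junction had 486, 314, 350 and 259, a site that is also joined from elsewhere. Unsplit reads numbered 207, 148, 194 and 165 at the 5′ junction, so nearly all split reads behind the efficiency near 0.5 came from the 3′ junction.

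Elsewhere in these genes, intron 3 of Tra2a-201 (1688 nt) had 0.799, 0.762, 0.780 and 0.790 and intron 3 of Tra2b-204 (1612 nt) had 0.740, 0.651, 0.732 and 0.647 in the 2 control and then the 2 knockdown libraries. In both, replicates differed by more than the group means did. At the Tra2b intron the second library was the lower of each group. Neither was called.

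The long reads give transcript models rather than junctions. The libraries labelled control and knockdown held 3080426 and 1874851 assigned reads, of which 2114 and 1347 fell on the 9 genes, and with 1 library of each kind no test was made. Intervals are 95% counting intervals and cover counting error only. Over all genes with at least 20 long reads, 4.16% were at least 2-fold lower in the library labelled knockdown and 2.21% at least 2-fold higher.

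Clk2 had 50 long reads in the library labelled control and 13 in the library labelled knockdown, or 16.2 and 6.93 CPM, a ratio of 0.427 (0.213 to 0.798). It was the only one of the 9 genes whose ratio interval left out 1. Tra2a, called lower in total RNA, had 123 and 85 long reads with a ratio of 1.14 (0.851 to 1.51). The ratios of the other genes ran from 0.912 for Srpk1 (0.788 to 1.05) to 1.26 for Srpk2 (0.988 to 1.61), and Dyrk1a had too few reads, 22 and 13, for a narrow interval (0.449 to 2.01).

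**Figure D5:**
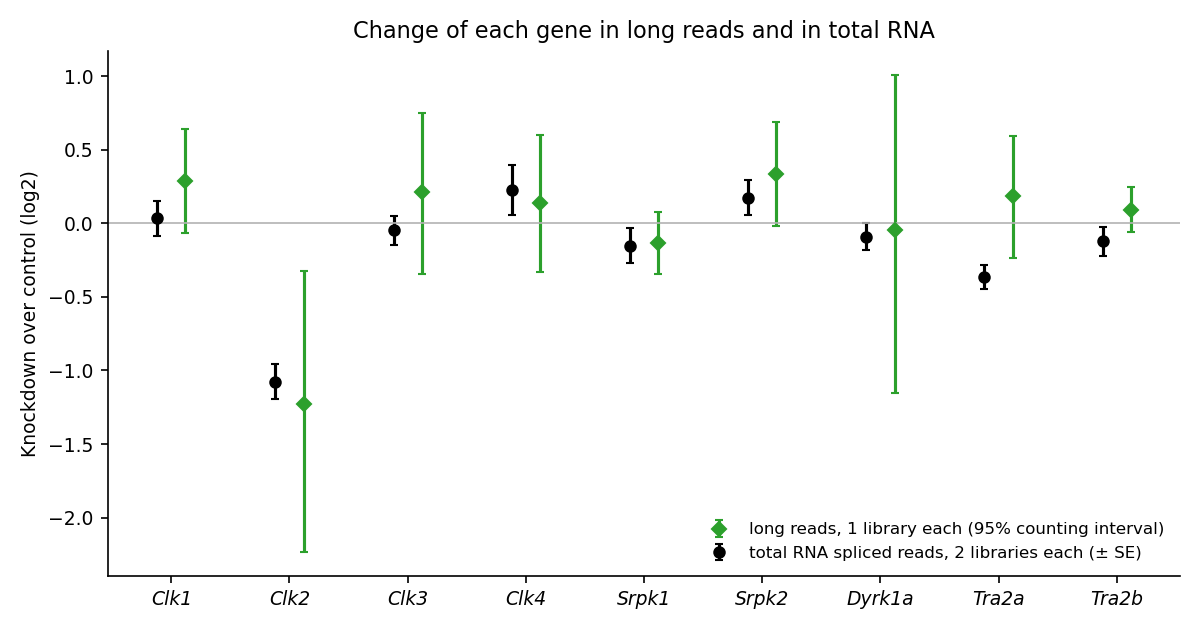
Knockdown over control on a log2 axis for each gene, from spliced reads of total RNA (circles, 2 libraries a group, bars are standard errors) and from long reads (diamonds, 1 library a group, bars are 95% exact counting intervals). Clk2 is the lowest gene by both measures, and Tra2a is lower in total RNA alone.

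The Clk2 long reads were too few for any of its models to reach the 20 reads set for describing a model, and they are given here because the total RNA results turn on this gene. Coding models had 24 and 2 reads, a ratio of 0.137 (0.0157 to 0.551). The main coding model Clk2-202 had 14 and 0, and a count of 0 in the library labelled knockdown allows up to 1.60 CPM. Models marked for nonsense-mediated decay had 9 and 7 reads, a ratio of 1.28 (0.404 to 3.86), and retained-intron models had 17 and 4 (0.387, 0.0946 to 1.19). The coding share was 48.0% (Wilson 34.8% to 61.5%) against 15.4% (4.33% to 42.2%), and these intervals overlap.

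All decay reads of Clk2 fell on Clk2-204, which lacks exon 4 of the coding model, and both Clk1 decay models with reads, Clk1-210 and Clk1-211, lack the same exon. Clk1-211 lacks exon 7 as well. Exon 4 is printed for the 2 genes because all 3 of these decay models lack it (GENCODE M21, GRCm38, whole exon, chr1:58420121-58420211 on the minus strand for Clk1 and chr3:89169618-89169702 on the plus strand for Clk2).
Clk1 exon 4: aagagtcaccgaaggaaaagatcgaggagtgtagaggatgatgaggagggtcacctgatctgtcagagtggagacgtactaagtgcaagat
Clk2 exon 4: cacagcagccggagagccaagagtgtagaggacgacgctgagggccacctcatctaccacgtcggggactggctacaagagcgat

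Retained-intron models keep the introns on both sides of that exon in Clk1-204, Clk1-212, Clk2-207, Clk3-203 and Clk4-213. Clk1-210 had 25 and 21 reads (ratio 1.38, 0.735 to 2.57) and Clk1-212 had 31 and 23 (1.22, 0.679 to 2.16). These intervals include 1. Introns 3 and 4 of the Clk genes are among those not listed in the total RNA tables, and introns 5, 8, 9 and 10 of Clk2-202 are kept whole in none of Clk2-204, Clk2-207 and Clk2-211.

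Of 71 models of the 9 genes with reads, 22 had at least 20 over both libraries, and among these 1 was at least 2-fold higher and 0 at least 2-fold lower. Over all 13807 models with that many reads, 3.32% were at least 2-fold higher and 5.8% lower. The 1 model was Tra2a-204, a coding model, with 10 and 17 reads (ratio 2.79, 1.21 to 6.83). The decay models with the stop-codon exon, Tra2a-202 with 26 and 20 reads (1.26, 0.669 to 2.35) and Tra2b-206 with 31 and 19 (1.01, 0.538 to 1.84), had intervals that include 1.

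Models annotated as retained-intron were prominent for the SRPK genes. They took 64.6% of Srpk1 reads in the library labelled control (60.5% to 68.6%) and 64.7% in the library labelled knockdown (59.1% to 70.0%), and 71.2% and 70.0% of Srpk2 reads. For Srpk2 nearly all of these reads fell on Srpk2-205, with 110 and 84. That model keeps no intron of the coding model Srpk2-201 whole, so its share does not measure retention of those introns. Within Srpk1, Srpk1-203, which keeps introns 9 and 10, had 258 and 155 reads (0.987, 0.804 to 1.21), and Srpk1-212, which keeps intron 10 alone, had 70 and 23 (0.540, 0.322 to 0.876). Tra2a retained-intron models had 15 and 2 reads (0.219, 0.0243 to 0.942). Tra2b-204, the model with most reads of all, had 728 and 488 (1.10, 0.980 to 1.24).

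Other genes of the pathway were looked up as 4 lists drawn up by function, with earlier results of these data known. Over all genes, 6.76% were called lower in spliced reads and 1.96% higher. Of 10 SR proteins tested, the substrates of these kinases, edgeR and DESeq2 called 0 in spliced reads, with 0 at an unadjusted p under 0.05 in both, at a median log2 fold change of -0.01 beside 0.01 over all genes. Among 12 related kinases, 3 were called lower and 0 higher, beside those shares of 6.76% and 1.96%. These were Akt1 at -0.64 (SE 0.13), Akt2 at -0.53 (SE 0.12) and Cdk9, the kinase of the elongation factor P-TEFb, at -0.50 (SE 0.14), in log2 fold change. Akt1 went from 46.2 and 40.5 to 28.3 and 28.2 CPM, Akt2 from 79.8 and 75.3 to 62.0 and 46.8, and Cdk9 from 38.8 and 42.2 to 32.0 and 25.6. None of the 9 phosphatases, transport factors and chaperones was called by edgeR, with 1 lower at an unadjusted p under 0.05, or by DESeq2, with 0. Of 13 arginine-serine-rich speckle and junction-complex proteins, Srrm2, a speckle scaffold, was called higher at 0.30 (SE 0.07), and Son itself lower at -1.61 (SE 0.09). Without the first control library only Son of these 5 was called, and Cdk9 and Srrm2 were not called without the second control library either, nor Cdk9 without the second knockdown library.

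In intron efficiency, 0 of 27 introns of the SR proteins and 0 of 82 of the related kinases were called by edgeR, with 0 lower and 1 higher and with 5 lower and 0 higher at an unadjusted p under 0.05. DESeq2 and limma also called 0 in both lists, with 1 and 3 introns at that level by DESeq2 and 0 and 3 by limma. Of 56 introns of the phosphatase list 1 was called lower, in Ahsa1, and of 86 introns of the arginine-serine-rich list 4 were called lower, all in Son. Leaving out the first control library ended all 5 of these calls, and DESeq2 made none of them, with 1 and 8 introns at an unadjusted p under 0.05. The median log2 odds ratios of the 4 lists were 0.07, -0.06, 0.02 and 0.12, beside 0.12 over all introns.

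In gene splicing efficiency, 1 of 10 SR protein genes was called higher, Srsf2, beside 0.128% of all genes. Its single listed intron had an efficiency of 0.902 and 0.911 in the controls, against 0.954 and 0.934 after knockdown, with a log2 odds ratio of -0.84 (SE 0.28). The call on Srsf2 was not made by DESeq2 (-0.84), nor without the first (-0.75) or second (-0.92) control library or the first knockdown library (-0.55), and the sign turned with the 5′ junction alone (1.57, not called). Ahsa1, a co-chaperone of HSP90, was called lower, from 0.972 and 0.972 to 0.953 and 0.937, at 0.96 (SE 0.27). Without either control library or the second knockdown library, Ahsa1 was not called, at 0.75 to 0.97. Son was also called lower, from 0.932 and 0.929 to 0.849 and 0.834, at 1.34 (SE 0.23). Of the 12 related kinases, edgeR and DESeq2 called 0 in this measure, with 3 lower at an unadjusted p under 0.05 in both.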

How the data were processed

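Total RNA of 4 libraries and Nanopore cDNA of 2 libraries of E14 cells were used, grouped by their titles. The total RNA tables, 1 per library, come from SPLICE-q per the labels, and in them the authors deposited a split and an unsplit read count for either end of every intron. The deposited score is a fraction from 0 to 1, and a check of the authors' tables showed that it equals the split reads divided by all junction reads, with at least 10 reads at each listed junction. The Nanopore tables hold a deposited read count for every transcript. SAMtools, minimap2 and GRCm39 are named in the submitters' processing notes without a role, and the annotation, strand handling and settings are not given in the sources used here.

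Introns listed in all 4 libraries, whose split and unsplit reads each summed to 10 or more, were fitted with edgeR 4.0.16 (R 4.3.3). The quasi-likelihood test had a term per library, one for unsplit reads and a tested one for unsplit reads in the knockdown. Of the introns listed in all 4 libraries, 681 were listed under more than 1 gene, and these were not removed before this fit. The same model was fitted to gene sums. All gene sums used only introns listed under 1 gene. Split reads at 5′ junctions were summed per gene and tested with TMM scaling after filterByExpr. All p-values were adjusted over the whole table. limma 3.58.1 and DESeq2 1.42.0 served as alternatives. Nanopore counts were divided by all assigned reads of the library, with Wilson intervals for shares, exact binomial intervals for ratios, a pseudocount of 0.5 reads for 2-fold counts and 3 reads as the limit of a count of 0. Transcripts were matched to GENCODE M21 without the version number.

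The fits were tested on simulated data with known changes in 200 features at 2 levels of replicate spread. Few introns simulated with a 2-fold change were called at either spread, and those with a 4-fold change were mostly called at the narrower spread and mostly missed at the wider one. The estimated changes were close to those simulated, and the model was kept. The genes, lists and tests were chosen with earlier results of these data known. Introns described are those called, those with a control efficiency under 0.8 and at least 10 reads at each junction in all libraries, and otherwise the intron with most reads. Intron 2 of Clk2-202, introns 6, 7 and 9 of Clk3, intron 7 of Srpk1 and introns 10 and 13 of Srpk2 lie outside this rule and were added after their values were seen. Long-read models described are those with at least 20 reads. The genes most like Clk2 were the 5 nearest among genes with a mean of at least 100 spliced reads. Pathway genes named are those called. Same-numbered libraries did not deviate together enough to treat the numbers as pairs.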

Additional observations from a re-analysis of the deposited data

How the results depend on the processing

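The 3 calls on introns of the 9 genes became 1 with the 5′ junction alone, 1 with the 3′ junction alone, 1 with DESeq2, which gave no adjusted p for 2 of the Clk2 introns, and 0 with limma on the log odds, where 5 of the 52 introns had an unadjusted p under 0.05 and no intron of the whole table was called. Over the whole table, 1112 of 63309 introns were called in the main fit. The 5′ junction alone called 232 of 50021, the 3′ junction alone 322 of 52435 and DESeq2 285 of 63309. Leaving out 1 library at a time moved the number of calls as well, here and over the whole table. With stricter filters or separate scaling of split and unsplit reads, 4 were called, the addition being Clk2 intron 10. Under separate scaling the all-intron median of the log2 odds ratio went from 0.12 to -0.04, so small changes near that median have no settled direction. The 2 calls in spliced reads became 1 with the best covered intron only. That setting called 290 of 9468 genes over the whole table, against 826 of 9474 in the main fit. The number also moved when 1 library was left out, as it did over the whole table. Clk2 was called in spliced reads and in gene splicing efficiency under every alternative run. For the pathway lists, the main fit made 5 gene calls and 5 intron calls. DESeq2 made 5 gene calls and 0 intron calls, with 660 of 9474 genes and 285 of 63309 introns called over the whole table. These numbers also moved when 1 library was left out, as did those of the whole table. The alternatives for the 3 list genes called in gene splicing efficiency were chosen after seeing the data. Son kept its call in all of them. Srsf2 was called in 4 of 9, and its estimate changed sign with the 5′ junction alone (1.57, not called). With 1 library left in a group, its spread is assumed to be that of the other group.

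Same-numbered libraries had correlated deviations of 0.036 in spliced reads and 0.13 in intron efficiency over 2 pairs, and no label ties a number to a shared batch. With a replicate block, the 9 genes had 3 intron calls, 2 in spliced reads and 1 in gene splicing efficiency. The pathway lists had 6 gene calls and 8 intron calls. Over the whole table the block gave 1626 intron calls, 1000 in spliced reads and 1018 in gene splicing efficiency. Without it these were 1112, 826 and 666.

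Depth limits the introns and the long reads. Several of the introns described had under 100 junction reads in a library, and the 13 long reads of Clk2 in the library labelled knockdown leave its transcript shares wide.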
